A study of Mus musculus with 18 samples.

Results

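Prlr, Ghr, Socs2, Cish, Igf1 and Igf1r are 6 of the 15035 genes measured in the kidney cortex of 18 mice, and they were taken by name from the deposited tables. Prlr was chosen by its own measured levels, low in vehicle-treated diseased mice and not brought back by any treatment, so those levels are described with no test in any comparison. Kidney cortex came from 6 groups of 3 mice. Healthy controls were of the MRL/MpJ wild type and received vehicle. All 15 others carried the lpr mutation of Fas (MRL/lpr), which leads to a lupus-like nephritis. They made up a vehicle group, an MMF group, an FK506 group, a prednisone group and a multi-target group. MMF is mycophenolate mofetil, FK506 is tacrolimus, a calcineurin inhibitor, and prednisone is a glucocorticoid. The labels name neither the drugs of the multi-target treatment nor doses, ages or the vehicle. Healthy mice differ from vehicle-treated MRL/lpr mice in genotype as well as disease, and their sample titles follow another pattern, so genotype, disease and any separate handling cannot be told apart.

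Growth hormone and prolactin act through closely related receptors of the class I cytokine family, encoded by Ghr and Prlr. A bound receptor activates the kinase JAK2, which phosphorylates STAT5, and STAT5 enters the nucleus and turns on genes such as Cish and Socs2, whose products dampen the same receptors. Growth hormone also raises the production of IGF-1, encoded by Igf1, which signals through its own tyrosine kinase receptor, encoded by Igf1r, and on to PI3K and AKT. In the kidney, proximal tubule cells carry the growth hormone receptor, and growth hormone and IGF-1 are known for effects on filtration, phosphate reabsorption and kidney size.

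STAT5 dimers bind a palindrome written TTCNNNGAA, which reads the same on both strands. It was searched in windows of 250 bases before to 50 after each start in RefSeq on GRCm38.p6, the assembly that mm10 names. Of 32851 windows, 8.30% held at least 1 match and 0.457% at least 2. Matches overlapping each other were counted separately. The Cish window held 2 matches, at bases 1 and 12 from the start. A Bcl6 window held 3, at positions -168, -122 and -88 from a start, and 0.0335% of windows held as many, while the other Bcl6 window held 1. A Prlr window held 1, at position -110 from one of its 3 starts, and the other 2 windows held none. Igf1, Igf1r, both Ghr windows and both Pim1 windows held none. Socs2 was not searched. The Cish and Bcl6 stretches are shown because these genes moved together or against each other between mice, and the Prlr stretch because Prlr varied most of the 6 in FK506 and multi-target mice. Capitals mark the matches, which are letters in a window and not measured binding.
Cish (GRCm38.p6, chr9:107296529-107296688, plus strand): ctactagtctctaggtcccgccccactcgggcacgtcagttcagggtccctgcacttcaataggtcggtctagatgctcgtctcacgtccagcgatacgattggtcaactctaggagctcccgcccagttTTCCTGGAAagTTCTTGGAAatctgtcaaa
Bcl6 (GRCm38.p6, chr16:23981254-23981483, minus strand): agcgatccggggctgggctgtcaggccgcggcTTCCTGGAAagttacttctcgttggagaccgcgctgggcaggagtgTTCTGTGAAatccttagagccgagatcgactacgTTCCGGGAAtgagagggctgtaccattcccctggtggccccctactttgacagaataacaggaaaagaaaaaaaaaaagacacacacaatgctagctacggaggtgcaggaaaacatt
Prlr (GRCm38.p6, chr15:10223756-10223935, plus strand): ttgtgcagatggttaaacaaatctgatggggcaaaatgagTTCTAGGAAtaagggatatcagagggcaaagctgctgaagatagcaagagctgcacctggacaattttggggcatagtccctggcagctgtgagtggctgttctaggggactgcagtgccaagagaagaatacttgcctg

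All values are deposited log2 levels, 1 per gene and mouse, from libraries of 28939845 to 41066953 read equivalents. Cish and Igf1r behaved as single rows of whole reads, 559 to 3199 reads for Cish and 5481 to 15423 for Igf1r. Prlr, Ghr, Socs2 and Igf1 did not come out as whole reads. Their values may be means of several rows, so a level is compared between mice and never between genes. In bulk tissue, fewer cells of a type and less RNA per cell cannot be told apart. The 12 proximal tubule markers expected of cortex were above 0 in every library, with summed levels of 18.07 to 20.04. Vehicle mouse 17 had a summed adipocyte marker level of 14.2, against 6.60 to 6.79 in the other vehicle mice, and FK506 mouse 12 had a summed adrenal cortex marker level of 14.03, against 8.36 and 8.83 in the other FK506 mice. Without these 2 mice no count of the 5 tested genes called changed. The summed urothelium marker level of vehicle mice ran from 7.60 to 10.9, with a median of 7.87. In every other group it was at most 8.74. Levels are listed in the order of mouse numbers, which are healthy 1, 2 and 3, vehicle 7, 17 and 36, MMF 1, 14 and 27, FK506 3, 12 and 24, prednisone 23, 29 and 35, and multi-target 6, 18 and 39. Each comparison used limma on all 18 libraries, with Benjamini-Hochberg adjustment over all 15035 genes and a call at an adjusted p of 0.05.

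**Figure D1:**
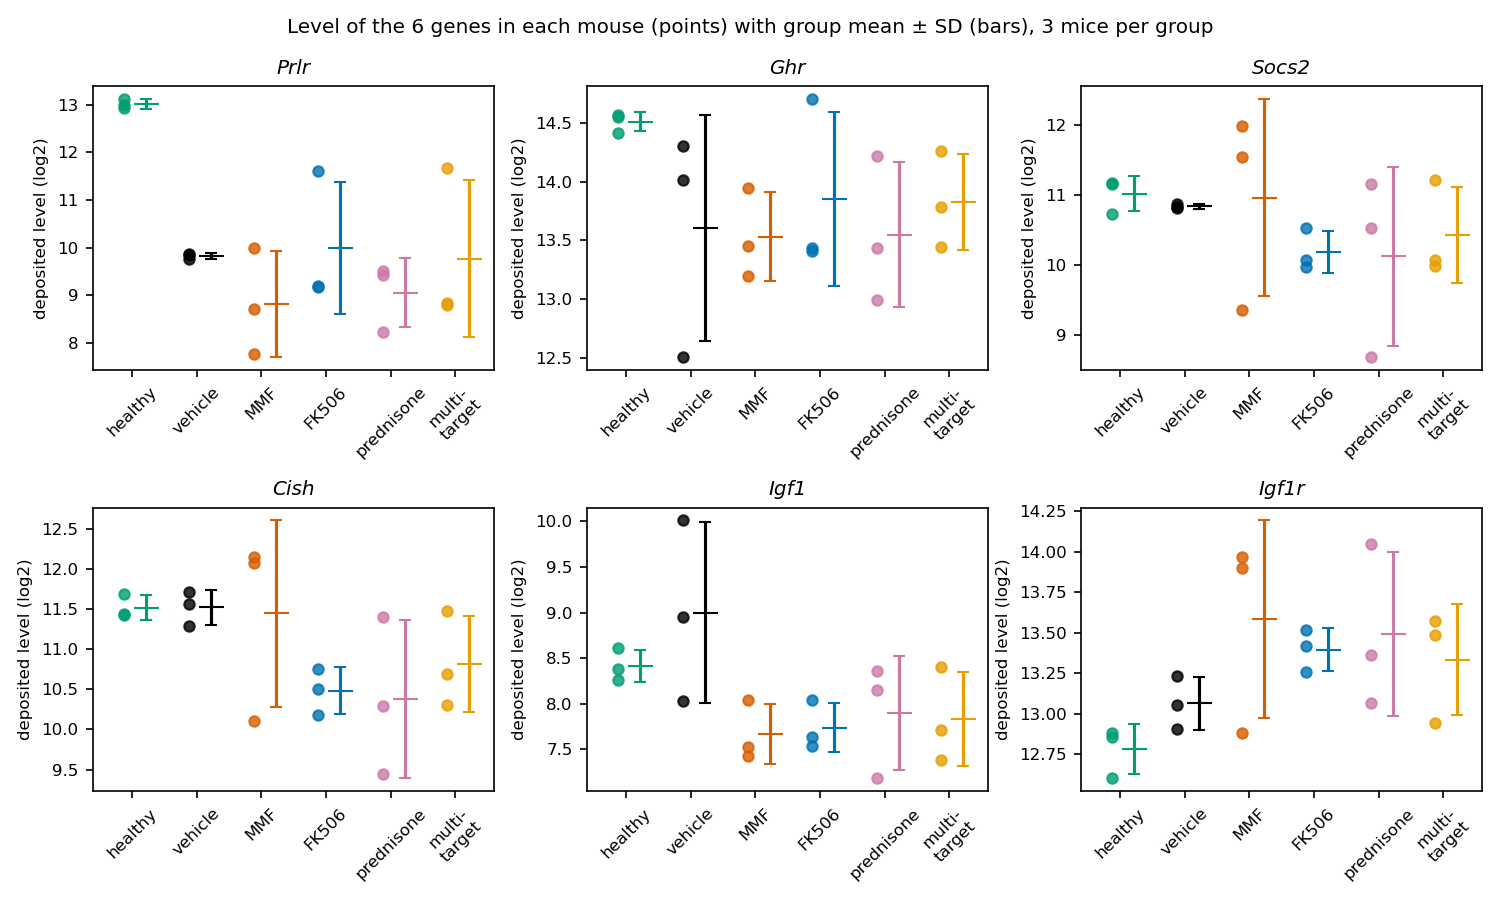
Deposited log2 level of each of the 6 genes (vertical axis, own scale per panel) in each mouse (points) by group (horizontal axis), with group mean ± SD beside the points (n = 3). Prlr lies between 12.92 and 13.12 in healthy mice and below 11.7 in all 15 MRL/lpr mice, with 1 FK506 and 1 multi-target mouse well above the rest of their groups.

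Prlr, the prolactin receptor (GRCm38 chr15:10177238-10349190), was high in healthy mice, at log2 levels of 13.12, 12.99 and 12.92. Vehicle-treated MRL/lpr mice had 9.75, 9.87 and 9.84. MMF mice had 9.99, 7.78 and 8.71, and prednisone mice had 9.52, 9.42 and 8.23. In these 3 groups each mouse lay more than 2 log2 units below every healthy mouse. FK506 mice had 9.18, 9.21 and 11.60, and multi-target mice had 8.79, 8.84 and 11.68. FK506 mouse 24 and multi-target mouse 39 were thus the nearest to the healthy range, which none of the 15 MRL/lpr mice reached.

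The Prlr mean differed by -3.19 (log2) between vehicle and healthy mice, a 9.13-fold lower level, and by -3.52 between all MRL/lpr groups and healthy mice. The treated groups stood at differences from healthy of -4.19 with MMF, -3.02 with FK506, -3.96 with prednisone and -3.24 with the multi-target treatment. Relative to vehicle mice the differences were -0.996, 0.17, -0.76 and -0.05 in the same order of drugs. Over all alternatives, leaving out single mice included, the disease difference ran from -3.38 to -3.14, and that of FK506 against vehicle from -0.63 to 0.59. Against vehicle, MMF ran from -1.58 (without MMF mouse 1) to -0.47 (without MMF mouse 14), prednisone from -0.9968 to -0.35 (without mouse 35), and the multi-target treatment from -1.008 (without mouse 39) to 0.44. In order of mean level, healthy mice came first with a gap of 3.02 to FK506, followed by vehicle, multi-target, prednisone and MMF mice, and from FK506 on the gap between neighbours was never larger than the larger SD of the pair.

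The treated groups also differed in how much Prlr varied. Its SD was 0.10 in healthy and 0.06 in vehicle mice, and 1.11, 1.39, 0.72 and 1.65 in the MMF, FK506, prednisone and multi-target mice (n = 3 each). The last value exceeded the SD of 99.8% of genes in that group, and the vehicle value exceeded 7.33%. No test of the difference in spread was made.

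Ghr, the growth hormone receptor (chr15:3317755-3583352), had log2 levels of 14.56, 14.42 and 14.55 in healthy mice and 14.01, 14.30 and 12.51 in vehicle mice. Vehicle mouse 36 was the lowest of all 18 mice, and the 2 groups did not overlap. MMF mice had 13.94, 13.19 and 13.45, and FK506 mice had 13.41, 13.44 and 14.71. FK506 mouse 24, also the highest FK506 mouse for Prlr, was the highest of the 18. Prednisone mice had 13.43, 14.22 and 12.99, and multi-target mice had 13.78, 13.44 and 14.26. The vehicle mean differed from the healthy mean by -0.90 ± 0.45 (SE), with a 95% interval from -1.85 to 0.05 and a limma adjusted p of 0.154. Without vehicle mouse 36 it was -0.35, with an adjusted p of 0.647. Over all MRL/lpr groups the difference was -0.84 ± 0.35, with a limma adjusted p of 0.0859, and 0.0427 without FK506 mouse 24. In order of mean the groups ran healthy, FK506, multi-target, vehicle, prednisone and MMF, and every neighbouring pair overlapped.

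Igf1r, the IGF-1 receptor (chr7:67952257-68233668), had log2 levels of 12.86, 12.89 and 12.60 in healthy mice and 13.23, 13.05 and 12.91 in vehicle mice. MMF mice had 12.88, 13.97 and 13.90, and FK506 mice had 13.51, 13.42 and 13.26. Prednisone mice had 13.06, 13.37 and 14.05, and multi-target mice had 13.48, 13.57 and 12.94. Only MMF mouse 1 of the 15 MRL/lpr mice lay inside the healthy range. The vehicle mean was higher than the healthy mean by 0.28 ± 0.28 (SE), with a limma adjusted p of 0.480. The mean of all MRL/lpr groups was higher by 0.59 ± 0.21, with an interval from 0.13 to 1.05 and a limma adjusted p of 0.0540. Without MMF mouse 1 the difference was 0.66 with a limma adjusted p of 0.00872, and without prednisone mouse 23 or multi-target mouse 39 it also passed, at adjusted p-values of 0.0379 and 0.0373. From the highest mean the groups ran MMF, prednisone, FK506, multi-target, vehicle and healthy, and only the last pair did not overlap.

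Igf1, the growth factor itself (chr10:87858265-87937047), had log2 levels of 8.38, 8.26 and 8.61 in healthy mice and 8.03, 8.96 and 10.01 in vehicle mice. Vehicle mouse 36 had the highest level of all 18. MMF mice had 8.04, 7.43 and 7.53, FK506 mice had 7.53, 7.63 and 8.04, prednisone mice had 8.36, 8.16 and 7.19, and multi-target mice had 7.71, 7.39 and 8.40. All 4 treated groups therefore had a lower mean than vehicle mice, with ranges that overlapped them. The differences were -1.33 ± 0.42 (SE) for MMF, -1.26 for FK506, -1.10 for prednisone and -1.17 for the multi-target treatment. Their limma adjusted p-values were 0.0760, 0.171, 0.943 and 0.228, and the 4 comparisons share the same vehicle mice. Without vehicle mouse 36 the differences were -0.82, -0.76, -0.59 and -0.66 in the same order. The vehicle mean exceeded the healthy mean by 0.58 ± 0.42, with a limma adjusted p of 0.326, and by 0.0751 without vehicle mouse 36. Below vehicle and healthy, the order of means was prednisone, multi-target, FK506 and MMF, with each gap smaller than the larger SD of the pair.

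The same vehicle mice differed in markers of other cell types. The summed level of 6 fibroblast markers was 12.61 to 13.13 in healthy mice, 13.98 to 14.15 in vehicle mice 7 and 17, and 16.12 in vehicle mouse 36, and 3 of the 6 rose in disease. Of 10 macrophage markers, 9 rose in disease, and their summed level was 14.92 to 16.04 in vehicle mice and 12.32 to 12.54 in healthy mice. Of all 15035 genes, 2353 rose and 1016 fell in disease. No marker was at 0. Within groups, Igf1 followed these sums with r of 0.60 (fibroblast) and 0.68 (macrophage) over 18 mice. Other lists had r of like size, at 0.67 for T cell, -0.65 for podocyte and -0.75 for loop and distal tubule markers. The part of any of these cells in the Igf1 levels was not tested.

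Socs2 (chr10:95383903-95417321) and Cish (chr9:107296659-107302784) encode inhibitors of the SOCS family that STAT5 induces. Socs2 stood at log2 levels of 11.16, 10.72 and 11.15 in healthy mice and at 10.83, 10.80 and 10.87 in vehicle mice. Cish stood at 11.69, 11.43 and 11.43 in healthy mice and at 11.71, 11.29 and 11.56 in vehicle mice. Both genes thus overlapped between healthy and vehicle mice. The difference was -0.18 ± 0.62 (SE) for Socs2 and 0.0041 ± 0.51 for Cish, with limma adjusted p-values of 0.862 and 0.997. The 95% intervals, -1.50 to 1.15 and -1.07 to 1.08, leave room for differences of more than 1 log2 unit in either direction. Their width rests on the spread pooled over all 6 groups. The SD of Socs2 was 0.25 in healthy and 0.03 in vehicle mice, against 0.30 to 1.41 in the treated groups. For Cish it was 0.15 and 0.22, against 0.29 to 1.16.

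In MMF mice Socs2 had levels of 9.35, 11.98 and 11.54, and Cish had 10.11, 12.15 and 12.07. MMF mouse 1 was low in both, and the other MMF mice were the highest of all 18 for both genes. In FK506 mice Socs2 had 10.52, 9.96 and 10.06 and Cish had 10.76, 10.51 and 10.18, all below every vehicle mouse. In prednisone mice Socs2 had 10.52, 8.68 and 11.15 and Cish had 10.29, 9.44 and 11.40, with prednisone mouse 29 the lowest of the 18 for both. In multi-target mice Socs2 had 10.07, 11.21 and 9.98 and Cish had 10.68, 11.47 and 10.30. The Cish differences from vehicle were -1.04 ± 0.51 for FK506, with a limma adjusted p of 0.265, and -1.14 ± 0.51 for prednisone, with an adjusted p of 0.943.

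**Figure D2:**
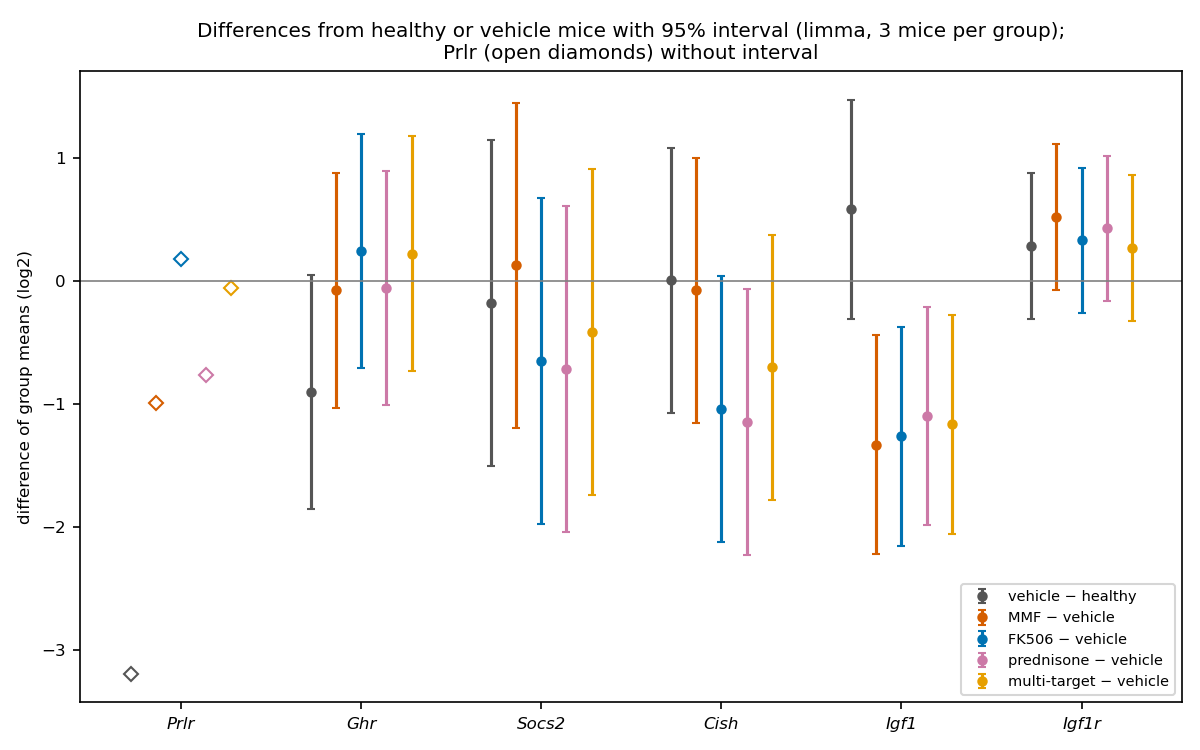
Difference of group means (vertical axis, log2) for each gene (horizontal axis) between vehicle and healthy mice (grey) and between each treated group and vehicle mice (colours), with 95% intervals from limma (n = 3 mice per group); Prlr is drawn without interval. The 4 Igf1 intervals for treated mice and the Cish interval for prednisone lie below 0 before adjustment over all genes. None of the differences passed the adjusted threshold.

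None of the 5 tested genes was called in the comparison of vehicle with healthy mice, in which 22.4% of all genes were called. None had an unadjusted p under 0.05 either, as 5599 of all 15035 genes had. Ghr and Igf1r were the 2 of the 5 whose groups did not overlap, as 52.4% of all genes did not. Over all MRL/lpr groups against healthy, 0 of 5 were called, against 26.2% of all genes. Of the 5, 2 had an unadjusted p under 0.05, beside 5957 of all 15035 genes. None of the 5 separated all 15 MRL/lpr mice from the healthy mice, as 19.9% of all genes did. The median difference of all genes was 0.09 in both comparisons. Leaving out 1 mouse (FK506 24, MMF 1, prednisone 23 or multi-target 39) raised the count called over all MRL/lpr groups to 1. The share of all genes called in those fits is not given here.

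Against vehicle, 0 of 5 were called for each drug, where 1.58% of all genes were called for MMF and 0% for FK506, prednisone and the multi-target treatment. At an unadjusted p under 0.05 the counts were 1, 1, 2 and 1 of 5. Of all 15035 genes, 4491, 2987, 474 and 2341 had an unadjusted p under 0.05 in the same order of drugs. Without MMF mouse 1, both Igf1 (-1.52, limma adjusted p = 0.0227) and Igf1r (0.87, adjusted p = 0.0139) passed for MMF. Without vehicle mouse 7, Igf1 passed for MMF, at -1.82 and an adjusted p of 0.0237. Without vehicle mouse 36 it stood at -0.82 with an adjusted p of 0.279. The share of all genes called in these fits without 1 mouse is not given here, so the passes have no background beside them.

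Against healthy mice, 0 of 5 were called in each treated group, against 15.9% of all genes for MMF, 7.27% for FK506, 16.7% for prednisone and 6.98% for the multi-target treatment. The unadjusted counts were 2, 1, 3 and 0 of 5, beside 5310, 3811, 4980 and 3737 of all 15035 genes. The FK506 count depended on which libraries set the spread. When only FK506 and healthy mice were fitted, 4 of 5 passed, beside 24.4% of all genes, namely Cish (-1.04, limma adjusted p = 0.00581), Igf1r (0.61, adjusted p = 0.00894), Socs2 (-0.83, adjusted p = 0.0179) and Igf1 (-0.68, adjusted p = 0.0262). Cish, Socs2 and Igf1 were lower and Igf1r higher in all 3 FK506 mice than in every healthy mouse. The share of all genes without overlap between these 2 groups is not given here. Between vehicle and healthy mice it was 52.4%. In the same fit of 2 groups, only Ghr passed for MMF, prednisone and the multi-target treatment, at adjusted p-values of 0.0360, 0.0460 and 0.0485, where 9.70%, 27.3% and 21.5% of all genes passed. The multi-target group differed from no single drug in any of the 5 genes, where 0% of all genes were called in each of the 3 comparisons. No gene of the 5 had an unadjusted p under 0.05 there. Of all 15035 genes, 1126, 61 and 503 had one against MMF, FK506 and prednisone. The Cish interval against MMF ran from -1.70 to 0.45.

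Within the groups, Cish and Socs2 moved together. Deviations of the 18 mice from their group means correlated at r = 0.949, and the levels themselves at r = 0.935, with Cish ranking first among 15034 genes for Socs2 by either measure and the only gene at r of 0.9 or more by level. By deviations 11 genes reached 0.9 for Socs2 and 101 for Cish, for which Socs2 came after Tmem159 (0.977), Tbc1d17, Dtd2 and Maf1. These correlations are over mice that share libraries across genes and carry no p. Pim1, a kinase gene that STAT5 induces, followed both at 0.917 (Socs2) and 0.916 (Cish). Bcl6, a transcriptional repressor that STAT5 represses, went the other way at -0.748 and -0.826. Ccnd1, which encodes cyclin D1, also went against them, at -0.776 and -0.853. By level Pim1 had r of only 0.396 and 0.294. Of the other STAT5 targets, Cdkn1a had r of 0.724 and 0.661 by deviations, Bcl2l1 0.389 and 0.280, Socs3 0.361 and 0.277, Il2ra 0.146 and 0.0985, Igf1 -0.425 and -0.576, and Ccnd2 -0.566 and -0.724. The listed targets thus lay on both sides of 0. The Bcl6 levels were 10.45, 8.78 and 8.18 in MMF mice 1, 14 and 27, in which Cish was low, high and high.

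**Figure D3:**
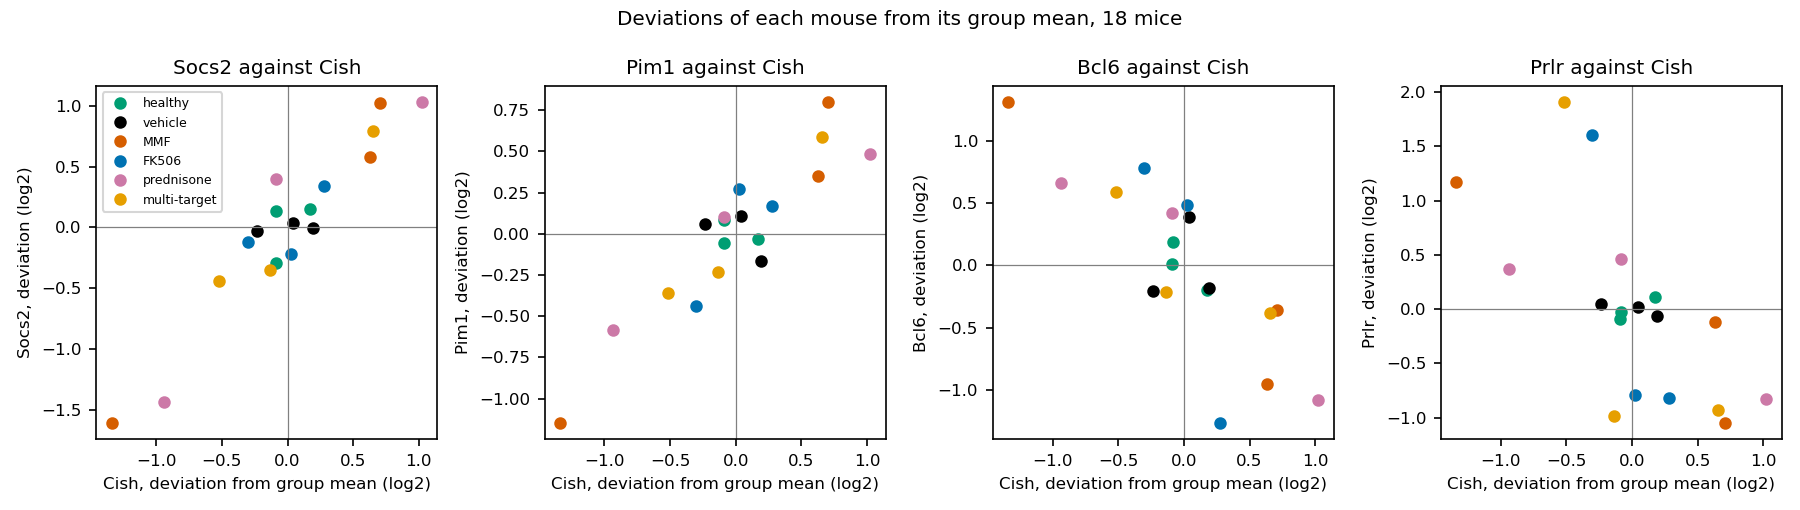
Deviation of each mouse from its group mean (log2) for Socs2, Pim1, Bcl6 and Prlr (vertical axes) against that for Cish (horizontal axes), 18 mice coloured by group. Socs2 and Pim1 rise along Cish (r of 0.949 and 0.916), Bcl6 runs against it (-0.826), and healthy and vehicle mice stay near the centre.

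Within groups, Prlr and Ghr ran against Cish, and Igf1r ran with it. By level the ties to Cish were weaker, at r of -0.052 for Prlr, -0.275 for Ghr and 0.238 for Igf1r. The lowest Cish in each of the 4 treated groups was in MMF mouse 1, FK506 mouse 24, prednisone mouse 29 and multi-target mouse 39. Each of these mice also had the highest Ghr and the highest Bcl6 of its group. In 3 of the 4 groups that mouse had the highest Prlr and the lowest Igf1r. Healthy mouse 3 had the lowest Cish and Igf1r, but mouse 1 had the highest Ghr and Prlr and mouse 2 the highest Bcl6. Vehicle mouse 17 had the lowest Cish and the highest Ghr and Prlr, but mouse 36 had the highest Bcl6 and the lowest Igf1r. By deviations over 18 mice, Prlr correlated with Cish at -0.681, with Ghr at 0.636 and with Igf1r at -0.749. Ranked from the highest r with Prlr, Ghr came at 1635 and Cish at 13365 among all genes, so many genes were tied more closely to Prlr. Igf1r correlated with Cish at 0.860 and with Igf1 at -0.742.

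Markers of some segments, and of other cell types, moved with these deviations. The summed level of 12 proximal tubule markers correlated with Ghr at 0.884 and with Prlr at 0.342, by deviations over 18 mice. The 4 proximal straight tubule markers correlated with Prlr at 0.820, with Cish at -0.831 and with Igf1r at -0.783. Other lists had r of like size, at -0.826 for B and plasma cell markers with Ghr and -0.785 for macrophage markers with Igf1r. Loop and distal tubule markers had r of -0.114 with Prlr, and collecting duct markers 0.161. Their summed level was 15.2 in FK506 mouse 24 against 13.6 in both other FK506 mice, and 14.4 in MMF mouse 1 against 13.2 and 12.6 in the other MMF mice. In vehicle mice it was 14.6 to 14.9 and in healthy mice 14.7 to 14.8. The single markers went both ways in disease. Cyp7b1 rose by 1.33 (limma adjusted p = 0.00298), Atp11a stood at 0.42, and Slc7a13 and Slc22a7 stood at -2.58 and -2.16 with adjusted p-values of 0.100 and 0.146, so the sum does not show that the straight tubule markers were alike in both groups. For the proximal tubule list, 5 of 12 fell and none rose in disease, beside 1016 that fell and 2353 that rose of all 15035 genes. The sums were 19.91 to 20.04 in healthy and 18.07 to 19.42 in vehicle mice, lowest in mouse 36. No marker was at 0. The part of cell makeup in the Ghr and Prlr levels was not tested.

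**Figure D4:**
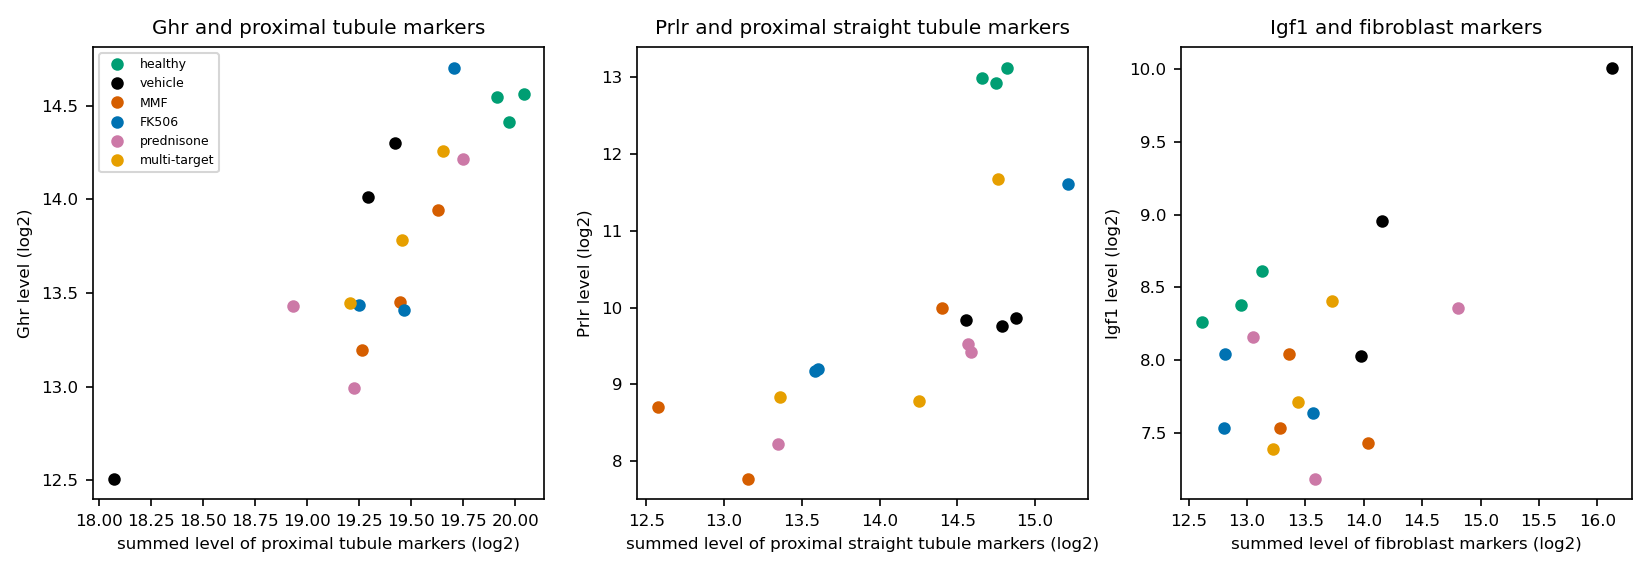
Log2 level of Ghr, Prlr and Igf1 (vertical axes) against the log2 of the summed level of a marker list (horizontal axes) in 18 mice coloured by group. Vehicle mouse 36 sits at 18.07 for proximal tubule markers with the lowest Ghr and at 16.12 for fibroblast markers with the highest Igf1, while the summed straight tubule level is 14.6 to 14.9 in vehicle and 14.7 to 14.8 in healthy mice.

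Likeness to Prlr was measured by Pearson's r over the 18 mice, as a description. By level, the most alike genes were Dio1 (0.950), Nudt11 (0.944), Me1 (0.941), Itfg1 (0.939) and Scoc (0.928), and 40 genes, 0.266%, reached 0.9. Dio1 encodes the deiodinase that activates thyroid hormone and Me1 cytosolic malic enzyme. By deviation from the group mean, they were Mogat1 (0.957), Akr1c18 (0.944), Slc22a2 (0.941), Gpt2 (0.934) and Tmco3 (0.934). Mogat1 encodes a monoacylglycerol acyltransferase and Slc22a2 the organic cation transporter OCT2. Dio1 also had r of 0.922 by deviations, so its likeness was not only the step between healthy and MRL/lpr mice. Depth followed Prlr weakly, at r of -0.283 with the log2 library factor.

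Of 66 tested genes of the pathway lists (5 more had no row), 10 rose and 2 fell in vehicle against healthy mice, and 12 rose and 3 fell over all MRL/lpr groups. These are 18.2% and 22.7% of the 66, beside 22.4% and 26.2% of all genes, so the counts do not set the pathway apart. These lists include Ghr, Socs2, Cish, Igf1 and Igf1r. No pathway gene was called for any drug against vehicle. Of all 15035 genes, 2353 rose and 1016 fell in disease, and 2749 rose and 1189 fell over all MRL/lpr groups. The counts by role stand beside these. By role, the ligands Prl and Igf2 fell. Prl, which encodes prolactin and is made mostly in the pituitary, had levels of 6.76, 6.90 and 6.90 in healthy and 5.89, 6.24 and 5.04 in vehicle mice, a difference of -1.13 ± 0.26 (SE) with a limma adjusted p of 0.00827. All 15 MRL/lpr mice lay below the healthy mice. When only vehicle and healthy mice were fitted, the limma adjusted p of Prl was 0.0553. Its call over all MRL/lpr groups was lost without any 1 of the 3 healthy mice (adjusted p of 0.0696 to 0.0914). Prl had only 29.5 to 105.5 read equivalents. These came out whole in all 18 libraries only when squared, as a mean over 2 rows would give. Igf2 fell by 2.10 ± 0.63, with a limma adjusted p of 0.0281, a call lost in 5 of 12 alternatives. The Igf2 call was lost without any 1 of the 3 healthy mice (adjusted p of 0.0655 to 0.0805). It was also lost in the fit of vehicle and healthy mice alone (0.0758) and without vehicle mouse 36. The level of that mouse was 5.28 against 7.47 and 8.10 in the other vehicle mice, and without it the difference was -1.26 with an adjusted p of 0.153.

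Among 13 measured feedback inhibitors, 2 rose in disease and none fell, beside 2353 that rose and 1016 that fell of all 15035 genes. Socs3, an inhibitor induced by STAT3, had levels of 6.29, 6.63 and 6.98 in healthy and 9.71, 9.26 and 10.82 in vehicle mice, a rise of 3.30 with a limma adjusted p that stayed at or under 0.00514 in each of the 13 alternatives run. Every one of the 15 MRL/lpr mice, from 8.19 in FK506 mouse 3 upward, was above the healthy mice. Socs3 thus moved while Cish and Socs2 did not pass. Ptpn6, the phosphatase SHP-1 of blood cells, rose by 0.89, a call lost in 8 of 13 alternatives. Ptpn1, the phosphatase PTP1B, passed over all MRL/lpr groups (0.88 ± 0.23, limma adjusted p = 0.0129).

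Of 10 genes from Jak2 to Irs2, Shc1 (0.49) and Grb2 (0.41), both adaptor proteins, rose in disease. Jak2 was at 0.14 and Stat5b at -0.09, and neither passed. Stat5a rose over all MRL/lpr groups (0.36, limma adjusted p = 0.0270), a call lost in 5 of 24 alternatives. These were equal library medians (0.22, adjusted p = 0.107), quantile normalization (0.27, 0.0679) and leaving out healthy mouse 1, 2 or 3 (adjusted p of 0.104, 0.0679 and 0.126). Among 12 PI3K and AKT genes, Eif4ebp1 (1.18), an inhibitor of translation, Pik3r1 (0.43) and Akt2 (0.26) rose in disease, and the last calls were lost in 10 and 7 of 13 alternatives. The median of that list was -0.06, beside 0.09 for all genes, of which 2353 of 15035 rose in disease.

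Of 13 genes for IGF binding and its control, Pappa2, a protease that frees IGF from its binding proteins, rose by 1.76 in disease. Its levels were 6.69, 7.09 and 6.63 in healthy and 8.25, 8.52 and 8.91 in vehicle mice, and over all MRL/lpr groups it was called in each of the 24 alternatives run. Igfals, which encodes the acid-labile subunit that holds IGF in circulating complexes, fell by 0.94 over all MRL/lpr groups (limma adjusted p = 0.0110), with no MRL/lpr mouse in the healthy range. Of the STAT5 targets, Pim1 rose in disease (1.18, a call lost in 11 of 13 alternatives) and over all MRL/lpr groups (1.40). Cdkn1a, a cell cycle inhibitor, rose over all MRL/lpr groups (1.999). Csf3r, the G-CSF receptor of neutrophils in the family of Prlr and Ghr, rose by 1.70 in disease. Only Csf3r and Socs3 of the 12 pathway genes called in disease were called in all 13 alternatives. Without vehicle mouse 36, Igf2, Shc1, Grb2, Ptpn6, Pappa2, Pim1, Pik3r1 and Eif4ebp1 no longer passed. How many of all genes lost their call without that mouse is not given here, so these losses are not set apart from other genes.

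Igfbp1, a secreted IGF binding protein that insulin represses, had the largest difference of its list between MMF and vehicle mice, 3.57 ± 0.95 (SE), with a limma adjusted p of 0.0572. Its levels were 9.93, 9.09 and 8.29 in vehicle mice and 9.70, 14.91 and 13.42 in MMF mice. MMF mice 14 and 27, which also had the highest Cish and Socs2 of all 18 mice, were far above MMF mouse 1. The other treated groups held 9.45 to 11.96.

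**Figure D5:**
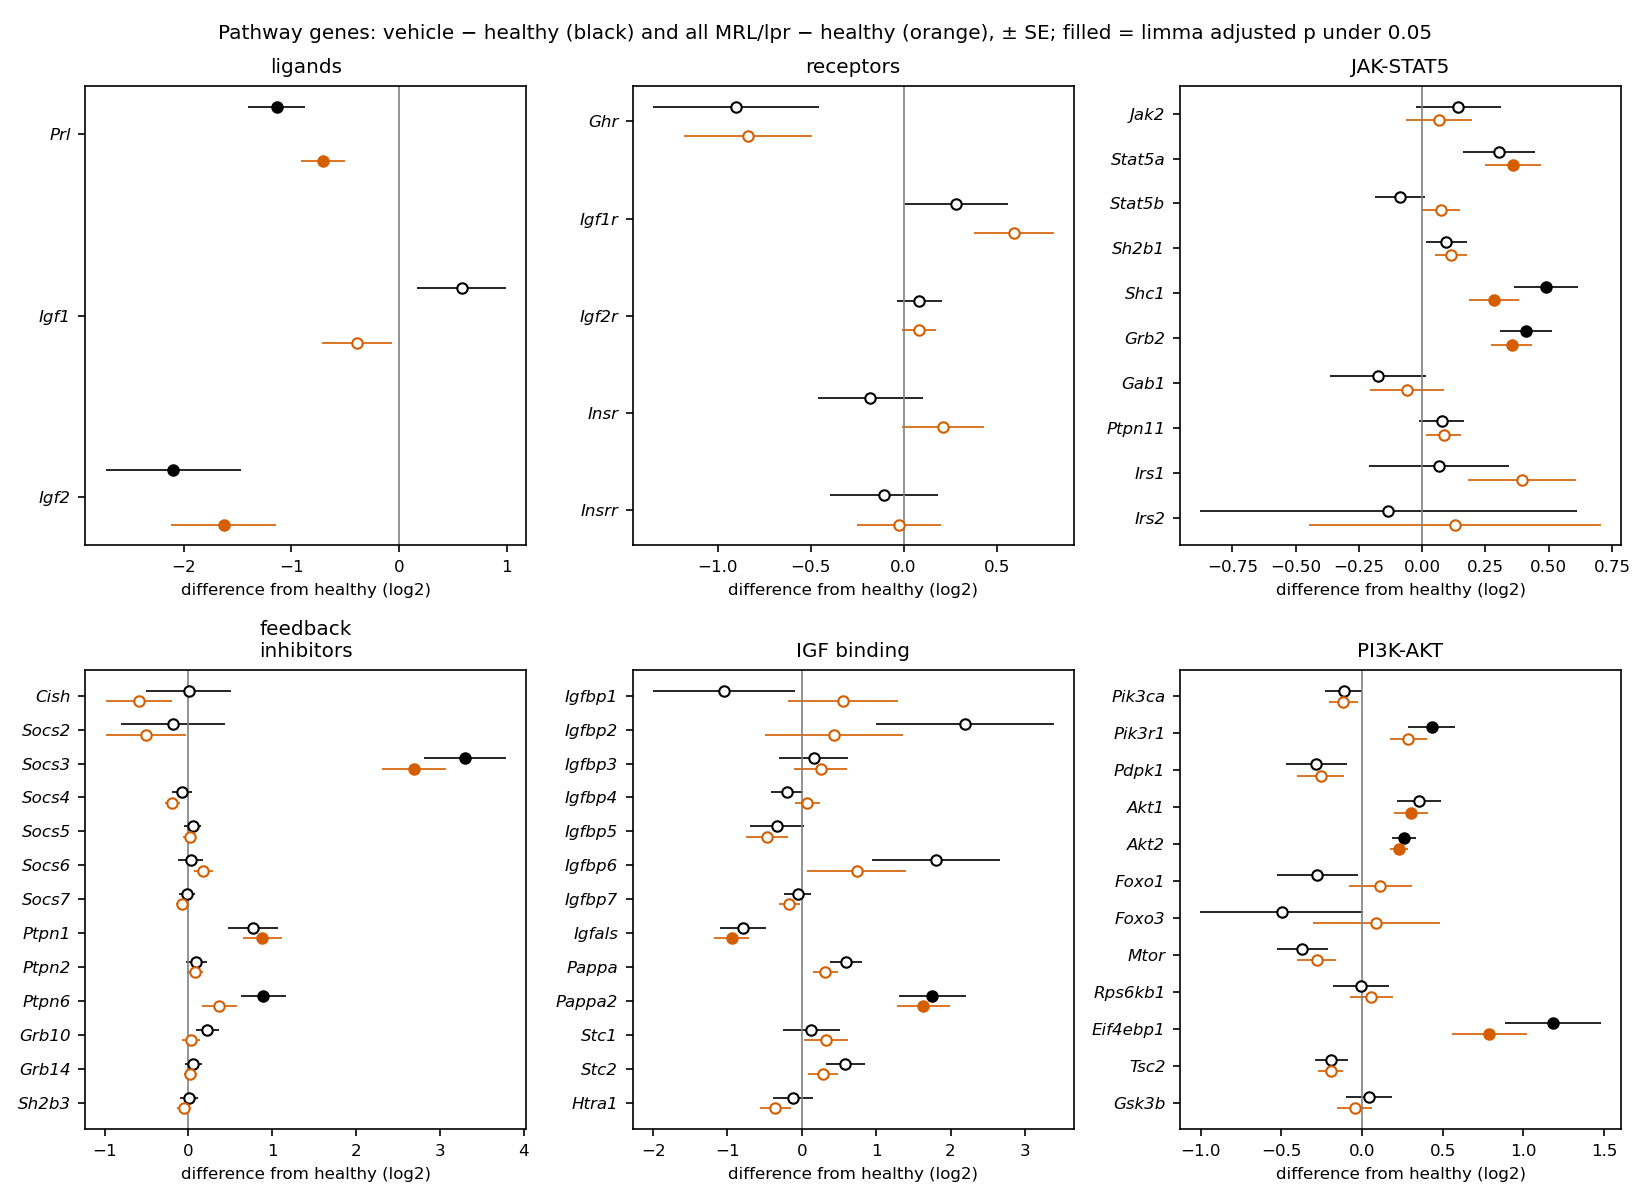
Difference from healthy mice (horizontal axes, log2, ± SE from limma) of vehicle mice (black) and of all MRL/lpr groups (orange) for genes of 6 pathway lists; filled points passed an adjusted p of 0.05. Socs3, Pappa2 and Eif4ebp1 lie to the right and Prl and Igf2 to the left, while Jak2, Stat5b, Cish and Socs2 are open in both comparisons.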

How the data were processed

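The deposited files hold log2 expression values made by the authors, 1 per gene symbol and library, and were used with no filter and no pseudocount. The submitters' processing notes name limma and mm10 without roles, and an aligner and counter are not given in the sources used. RNA was column-purified from frozen tissue, per the labels' protocols. On the linear scale, 75.0% to 75.5% of genes in a library were whole multiples (tolerance 0.001) of what a single read is worth there. For 55.3% of the remaining genes that could be tested, the square was whole, as a mean of log2 values over 2 rows would give.

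Group means over 18 libraries were fitted with limma 3.58.1 (R 4.3.3, mean-dependent prior variance, 12 residual degrees of freedom) in 13 comparisons. The fit was tested on simulated data. The 3 mice per group limit precision. The limma p-values set a difference of means against a spread between mice that is estimated over all 6 groups. Named genes are the 6 members, at most 4 called genes per pathway list and direction (or those with the largest difference), and the 5 most like Prlr by either measure. Bcl6, Ccnd1 and the mouse-by-mouse patterns were singled out after their values were seen. The members and lists were chosen with earlier results of these data known. Alternatives were 2 normalizations, a filter on the lowest 25% of genes, fits of only the groups compared, no variance trend, array weights, and leaving out mice.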

Additional observations from a re-analysis of the deposited data

How the results depend on the processing

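No paired analysis was possible because each of the 18 libraries is of a separate mouse. An equal mouse number in a healthy and a treated group does not mark the same animal. The counts of the 5 tested genes called were 0 for disease and for prednisone against vehicle in every alternative. With limma array weights, whose estimation stopped before full convergence, they became 2 for MMF, 1 for FK506 and 1 for the multi-target treatment against vehicle, 4 over all MRL/lpr groups, 3, 5, 3 and 5 for MMF, FK506, prednisone and the multi-target treatment against healthy, and 3 of 15 for the multi-target treatment against single drugs. The same weights called 44.9%, 15.5% and 18.5% of all genes for MMF, FK506 and the multi-target treatment against vehicle, 64.8% over all MRL/lpr groups, 59.1%, 56.9%, 37.9% and 66.0% against healthy in the order above, and 46.1%, 13.6% and 0.00665% for the multi-target treatment against MMF, FK506 and prednisone. Fitting only the groups compared gave 1, 4, 1 and 1 against healthy in that order, where 9.70%, 24.4%, 27.3% and 21.5% of all genes were called. Leaving out each mouse gave 0 to 2 for MMF against vehicle, 0 to 1 over all MRL/lpr groups and 0 to 1 for MMF against healthy. For the fits without 1 mouse, the shares of all genes called are not given here. The cause of these shifts was not tested.

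Sign changes affected differences that were not called. With libraries set to equal medians, Cish in disease was -0.19, Ghr 0.0395 and Cish 0.0394 for MMF, and Igf1 0.014 for the multi-target treatment against prednisone. With quantile normalization, Cish in disease was -0.0635 and Igf1 for the multi-target treatment against prednisone 0.0512. With array weights, Cish was -0.0802 in disease, 0.59 for MMF and 0.51 for MMF against healthy. Under the same weights Ghr was -0.56 for FK506, -0.30 for the multi-target treatment and 0.26 for it against FK506, Socs2 was 0.62 for MMF against healthy and -0.0199 for the multi-target treatment against prednisone, and Igf1r was 0.0611 for it against FK506. Without vehicle mouse 17 and FK506 mouse 12, Ghr was 0.27 for MMF and 0.29 for prednisone.

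Leaving out each mouse in turn moved uncalled differences across 0 over these ranges. In disease, Cish ran from -0.0923 to 0.12. For MMF, Ghr ran from -0.63 to 0.27, Socs2 from -0.39 to 0.93 and Cish from -0.43 to 0.59. For FK506, Ghr ran from -0.31 to 0.59. For prednisone, Ghr ran from -0.61 to 0.29 and Socs2 from -1.23 to 0.0031. For the multi-target treatment, Ghr ran from -0.33 to 0.57. For MMF against healthy, Socs2 ran from -0.56 to 0.75 and Cish from -0.43 to 0.59. For the multi-target treatment against MMF, Igf1 ran from -0.12 to 0.39. Against FK506, Ghr ran from -0.24 to 0.41, Socs2 from -0.16 to 0.46, Igf1 from -0.19 to 0.32 and Igf1r from -0.18 to 0.13. Against prednisone, Socs2 ran from -0.42 to 0.82, Cish from -0.0261 to 0.95, Igf1 from -0.42 to 0.16 and Igf1r from -0.37 to 0.12.

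The 3 mice per group and the spread of treated mice limit these comparisons. In each of the 13, the 95% intervals of Ghr, Socs2 and Cish reached beyond 0.5 log2 units on at least 1 side of 0.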
